A study of Mus musculus with 23 samples.

Results

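Left lungs of Fat-1 and wild-type (WT) mice were compared after repeated instillation of a dust extract. The mice were lavaged before the lobe was taken, so all values are of lavaged lung. The comparison covers 13 of the 23 lungs in the series, 6 from Fat-1 and 7 from WT mice, each from a separate mouse because a mouse has a single left lung. Lungs were taken into the comparison, and put in their groups, by the extract code alone, which records extraction date, genotype, sex, exposure and replicate. All 13 mice had received 14 instillations of organic dust extract. The Fat-1 dust lungs came from 3 females and 3 males, and the WT dust lungs from 4 females and 3 males. Another 10 lungs, 5 of each genotype, had received the same number of instillations of phosphate-buffered saline. They served to estimate the spread and to give the genotype difference without dust. The assay was a NanoString nCounter panel for mouse myeloid cells, in which barcoded probes bound to transcripts are counted without amplification, and the table held 734 endogenous and 20 housekeeping genes.

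Fat-1 mice carry a desaturase gene of the roundworm Caenorhabditis elegans that mammals lack. The enzyme turns omega-6 into omega-3 fatty acids, so the tissues of these mice hold less arachidonic acid and more eicosapentaenoic and docosahexaenoic acid without a change of diet. Arachidonic acid is the source of prostaglandins and leukotrienes, many of which promote inflammation, while the omega-3 acids are the source of resolvins and other mediators that help to end it. Organic dust carries bacterial and fungal products, and repeated exposure draws neutrophils, macrophages and lymphocytes into the lung. The comparison asks which myeloid and lung genes differ between the genotypes when both have been exposed. The labels give neither the promoter of the transgene, nor the age, strain background or diet of the mice, nor whether WT mice were littermates. The worm gene is not among the genes of the table, so genotype could not be checked on it.

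Values are normalized counts, that is, probe counts multiplied by one factor per lung, with counts under 20 set to 20 (the floor). Counts recovered from the values ran from 276331 to 795975 in Fat-1 and from 264771 to 812429 in WT dust lungs. By the code, RNA extraction took place on 2 dates, named here day 1 (4 Fat-1 and 4 WT dust lungs) and day 2 (2 and 3). Depth differed by genotype within the first day. The 4 Fat-1 lungs of day 1 had 276331 to 403602 counts and factors of 1.74 to 2.36, and the 4 WT lungs had 554066 to 812429 counts and factors of 0.858 to 1.25, with no overlap. All 4 of those Fat-1 lungs were on one cartridge, and 2 of the 4 WT lungs were. Some lungs stood apart. Fat-1 female dust lung 2 of day 1 had a ratio of the second to the third positive control of 1.07, against 2.66 to 3.51 in the other dust lungs. Fat-1 male dust lung 1 of day 2 had a binding density of 3.05 with a saturation message, against 0.45 to 1.32. Fat-1 male dust lung 1 of day 1 is Fat-1 by code and WT by title and characteristics. Of the markers fixed for the lung's cell types, none for T cells or erythroid cells was in the table. For B cells and for platelets 1 of 3 was. Of 4 mast cell markers, 2 were at the floor in every Fat-1 and 3 in every WT dust lung. Markers of endothelium (3 of 4 in the table) and epithelium (2 of 4) were present in both genotypes. The summed level of Cdh5, Tek and Thbd of endothelium was 1837 to 5576 in Fat-1 and 2980.5 to 7696 in WT lungs. That of Cdh1 and Lamp3 of epithelium was 8119.5 to 12775 and 8809.7 to 12950. The endothelial minimum of 1837 was the lung with the odd control ratio.

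No gene differed between Fat-1 and WT dust lungs at an adjusted p under 0.05 in limma, out of 711 tested (0.00%). The smallest adjusted p was 0.979. At an unadjusted p under 0.05 there were 22 genes (3.09%), of which 17 were higher (2.39%) and 5 lower (0.703%) in Fat-1 lungs. Housekeeping genes made up 3 of the 22, namely Hprt, G6pdx and Edc3. For no gene were the 6 Fat-1 values all above or all below the 7 WT values (0.00%). Across the 711 genes the median log2 difference was 0.02, and 379 lay above and 329 below 0. The precision was moderate. The 95% confidence interval had a median half-width of 0.50 on the log2 scale, and for 581 genes (81.72%) it lay within 1 log2 unit of no difference on both sides, which is a 2-fold change. Among the lists described below, this held for 1 of 13 neutrophil-attracting chemokines and cytokines and 7 of 17 neutrophil genes. For antigen presentation genes it held for 17 of 18, so the precision differed between lists. Only 3 genes had a difference of 1 log2 unit or more. In bulk lung RNA, a lower level of a gene in fewer cells and in the same cells with less RNA each cannot be told apart.

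**Figure D1:**
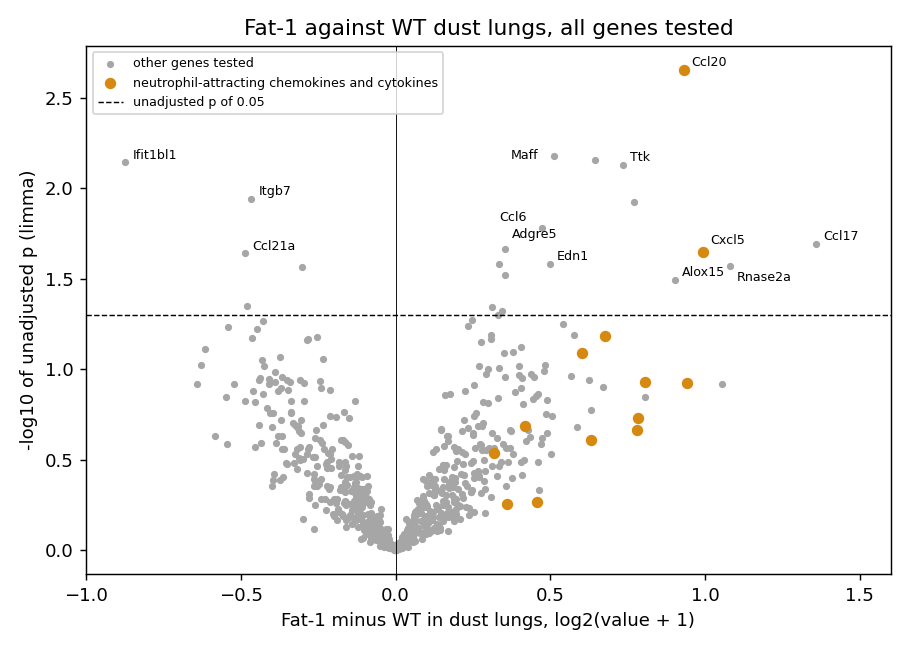
Log2 difference, Fat-1 minus WT in dust lungs (x axis), against −log10 of the unadjusted limma p (y axis) for the 711 genes tested. Orange points are the 13 chemokines and cytokines listed as neutrophil-attracting, Ccl20 among them, all to the right of 0. None of the 22 genes above the dashed line passed after adjustment.

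The genes nearest to a difference in the upward direction were led by chemokines. Ccl17, a chemokine of dendritic cells and alternatively activated macrophages that binds CCR4 on T helper 2 cells, had the largest difference. Its normalized counts were 3650.0, 1796, 1616 and 1601 in the Fat-1 lungs of day 1, and 215 in the female and 4430.2 in the male Fat-1 lung of day 2. The 7 WT lungs had 358 at the lowest, 656 at the median and 861 at the highest. Thus 5 of 6 Fat-1 lungs were above every WT lung, and 1 of 6 was below every WT lung. The log2 difference was 1.36 (SE 0.53, limma adjusted p = 0.979). Without that low lung, Fat-1 female dust lung 1 of day 2, the difference was 1.96 with a limma adjusted p of 0.0233. The lung is singled out here by its low Ccl17 value, so this p-value is not evidence for a difference.

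Cxcl5, an epithelial CXC chemokine that draws neutrophils through CXCR2, had the next largest difference among the chemokines. Fat-1 lungs ran from 37.2 through a median of 157 to 340.1 normalized counts, and WT lungs from 37.2 through 85.9 to 113. Again 5 of 6 Fat-1 lungs were above every WT lung, with the same female lung of day 2 as the lowest. The log2 difference was 1.00 (SE 0.40, limma adjusted p = 0.979). Ccl20, which draws CCR6-bearing dendritic cells and lymphocytes, was at 60.3 to 203 with a median of 109 in Fat-1 lungs and at 33.95 to 114 with a median of 40.2 in WT lungs. Of the 7 WT lungs, 5 were below every Fat-1 lung, and the WT male lungs 1 of day 1 (94.4) and of day 2 (114) were not. Ccl20 had the smallest p of all genes, with a log2 difference of 0.93 (SE 0.26, 95% confidence interval 0.38 to 1.48, limma adjusted p = 0.979).

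Maff, a small Maf transcription factor induced by stress and cytokines, was at 106 to 281 (median 210.4) in Fat-1 and 101 to 172 (median 130.5) in WT lungs, a log2 difference of 0.51 (SE 0.17). Edn1, which encodes the vasoconstrictor endothelin, was at 262 to 612 (median 431) and 221 to 396 (median 314), a difference of 0.50 (SE 0.21). For both genes 5 of 6 Fat-1 lungs were above every WT lung and the female lung of day 2 was the exception. Ccl6, a CC chemokine abundant in mouse macrophages, was at 538 to 1051 and 380.1 to 647, a difference of 0.47. Adgre5, the leukocyte adhesion receptor CD97, was at 1124 to 1962 and 924 to 1414, a difference of 0.35.

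Some of the higher genes lay close to the floor, where the low depth of the Fat-1 lungs of day 1 bears on the values. Rnase2a, of the eosinophil-associated ribonucleases, was at 49.99 to 95.02 (median 89.9) in Fat-1 and 20 to 71.5 (median 39.4) in WT lungs, a log2 difference of 1.08. This family has near-identical members, so the gene behind the probe is uncertain. Alox15, the lipoxygenase discussed with the lipid genes, had a difference of 0.90, and Ttk, a mitotic checkpoint kinase, 0.74. With a common floor of 84.26 in every lung the differences of Rnase2a, Alox15 and Ttk were 0.08, 0.17 and 0.02. Every WT value of these 3 genes lies under that floor (at most 71.5, 37.65 and 61.5). Small differences thus followed from the setting, which cannot show what part depth had. With the same floor the differences of Ccl17, Cxcl5 and Ccl20 were 1.36, 0.85 and 0.39, and some WT values of Cxcl5 and Ccl20 also lie under it. Prok2, a secreted ligand that attracts myeloid cells, was above the floor only in 3 Fat-1 lungs, at 45.3, 61.5 and 45.5, and was at the floor in all 7 WT lungs.

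Besides the housekeeping genes Hprt and G6pdx, 3 genes were lower at an unadjusted p under 0.05. Ifit1bl1, an interferon-induced gene whose family holds similar copies, was at 20 to 84.8 (median 62.8) in Fat-1 and 74.7 to 232 (median 93.3) in WT lungs, a log2 difference of −0.87 (SE 0.29). Ccl21a, which guides dendritic cells and T cells to lymphoid tissue and has near-identical copies in the mouse, was at 1156 to 3399 (median 2004) and 2271 to 3262 (median 2822), a difference of −0.49 (SE 0.20). Itgb7, an integrin subunit of mucosal lymphocytes and mast cells, was at 96.9 to 186 (median 150.4) and 151 to 262 (median 204), a difference of −0.47 (SE 0.17). The genotypes overlapped for each. For Ccl21a, 4 of 6 Fat-1 lungs were below every WT lung and these were the 4 lungs of day 1, while the highest of all 13 lungs was the Fat-1 male lung of day 2.

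**Figure D2:**
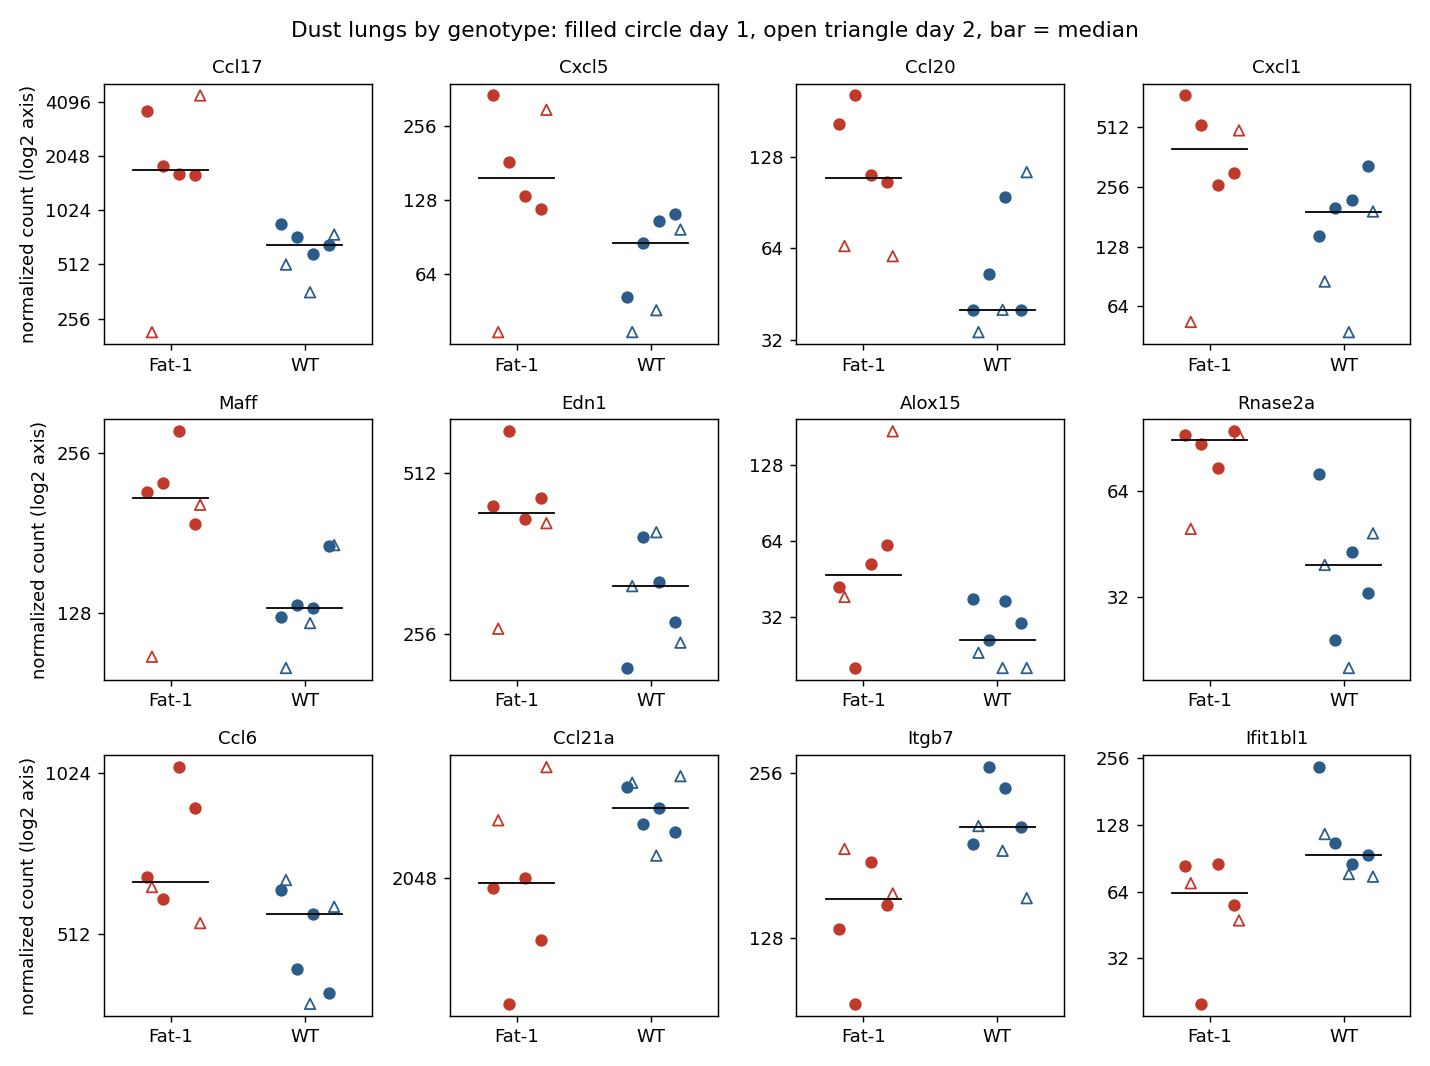
Normalized counts (log2 axes) of 12 genes in the 6 Fat-1 and 7 WT dust lungs, with filled circles for day 1, open triangles for day 2 and bars for genotype medians. For Ccl17, Cxcl5, Maff and Edn1, 5 of 6 Fat-1 lungs are above every WT lung and the female Fat-1 lung of day 2 is low.

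A list of chemokines and cytokines that draw or sustain neutrophils was higher in Fat-1 lungs by its median. It is named neutrophil-attracting here, though it also holds Ccl20, described above for dendritic cells and lymphocytes. The list was chosen with earlier results of these data known. All 13 tested members had a positive difference, against 379 of all 711 genes, with a median of 0.68 on the log2 scale against 0.02. At an unadjusted p under 0.05, 2 of the 13 (Cxcl5 and Ccl20) were higher, against 17 of the 711 (2.39%). None passed the adjusted threshold. Cxcl1, a main neutrophil attractant, was at 53.5 to 738 (median 397) in Fat-1 and 47.5 to 326 (median 192) in WT lungs, a difference of 0.94 (SE 0.58). Cxcl3, a related CXCR2 ligand, was at 135 to 1529 (median 1244) and 157 to 823 (median 651), a difference of 0.78 (SE 0.57). For Cxcl3, 5 of 6 Fat-1 lungs were above every WT lung and the female lung of day 2 was below every one. Cxcl2, the third of these ligands, had a difference of 0.36 (SE 0.60).

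The CC chemokines Ccl3 and Ccl4, made by activated macrophages, had differences of 0.78 and 0.81. Il6, a cytokine of the acute phase response, was at 20 to 126 in Fat-1 and 20 to 122 in WT lungs, a difference of 0.68 (SE 0.34). Csf2, which encodes the growth factor GM-CSF, had a difference of 0.60 and Csf3, the granulocyte growth factor, 0.32. Il1a and Il1b, the interleukin 1 cytokines released by injured cells and inflammasomes, had 0.63 and 0.46. Each of these intervals included 0 apart from those of Cxcl5 and Ccl20. The list's median was 0.43 to 1.20 with any 1 dust lung left out, lowest without the Fat-1 female dust lung 2 of day 1 and highest without the Fat-1 female dust lung 1 of day 2. It was 0.50 with a common floor over the 12 members still tested and 0.52 without the lungs of odd control ratio and of saturation. In saline lungs, grouped by the code, the same list had a median genotype difference of 0.17. Some of those Fat-1 lungs are WT by title and characteristics, namely female lung 1 of day 1 and male lung 2 of day 2.

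**Figure D3:**
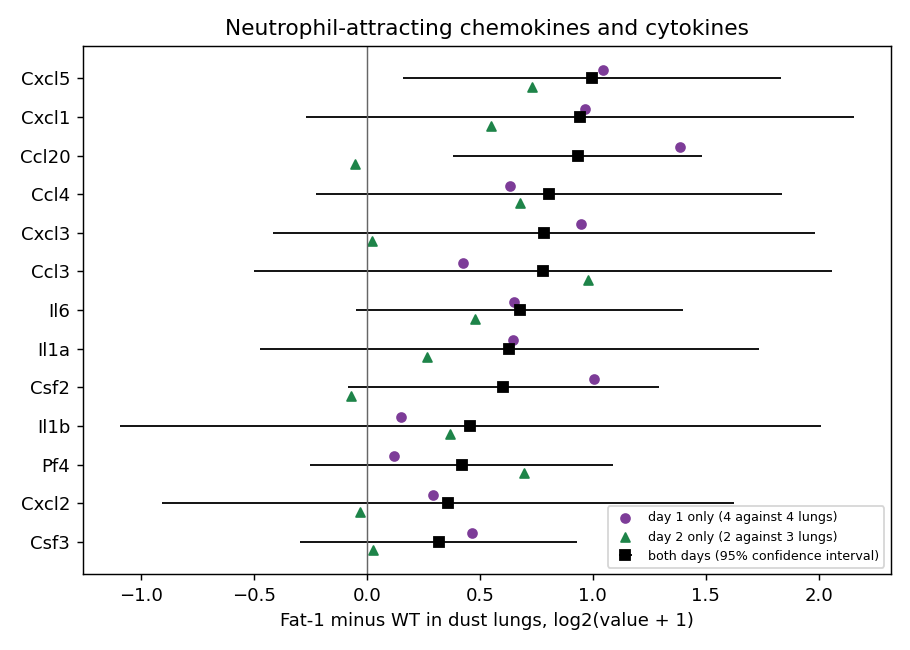
Log2 difference, Fat-1 minus WT in dust lungs, for 13 neutrophil-attracting chemokines and cytokines. Squares with bars are the estimates over both days with 95% confidence intervals, circles day 1 alone and triangles day 2 alone. The squares all lie above 0 and 11 of the 13 intervals include 0.

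Genes of neutrophils themselves, in these lavaged lungs, were spread to both sides of 0. Of 17 tested, 6 were higher and 11 lower in Fat-1 lungs, with a median difference of −0.05 and none at an unadjusted p under 0.05. That median was −0.33 to 0.39 with any 1 dust lung left out. It was −0.39 without the lungs of odd control ratio and of saturation, and −0.42 with array weights. S100a8, a calcium-binding protein that fills neutrophil cytosol, was at 491 to 15636 (median 4522) in Fat-1 and 501 to 15217 (median 5063) in WT lungs. Its difference of −0.05 had a confidence interval of −1.69 to 1.59, so a difference of 2-fold either way was not detectable at this spread. Cxcr2, the receptor of the chemokines above, had −0.04 (SE 0.83) and Csf3r, the receptor of granulocyte growth factor, −0.08 (SE 0.68). Fpr1, a receptor for bacterial formyl peptides, had −0.31 (SE 0.19), Selplg, the ligand of P-selectin, −0.26, and Camp, which encodes cathelicidin, −0.18 with 6 of 6 Fat-1 lungs at the floor. The lungs with the lowest S100a8, at 491 and 501, were the Fat-1 female lung of day 2 and WT female dust lung 2 of day 2, 1 of each genotype.

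The 2 lists were also set side by side within each lung. The mean log2 value of the chemokine list minus that of the neutrophil list is a ratio on the log2 scale, meaningful only between lungs. It was −0.92 to 0.26 with a median of −0.18 in Fat-1 lungs and −1.66 to −0.48 with a median of −1.04 in WT lungs. On day 1 the chemokine means of the Fat-1 female lungs, 8.63 and 8.53, were above those of the WT lungs, 7.28 to 7.82. The Fat-1 male lungs had chemokine means of 7.86 and 7.82, close to the highest WT lung, and neutrophil means of 7.60 and 7.81 below every WT lung. For the difference of the means, the 4 Fat-1 lungs had −0.57, −0.004, 0.01 and 0.26, all above the 4 WT lungs at −1.66 to −0.89. On day 2 the Fat-1 lungs had −0.92 and −0.36 and the WT lungs −1.04, −0.76 and −0.48, which overlap. This quantity was formed after the values were seen and was not tested.

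**Figure D4:**
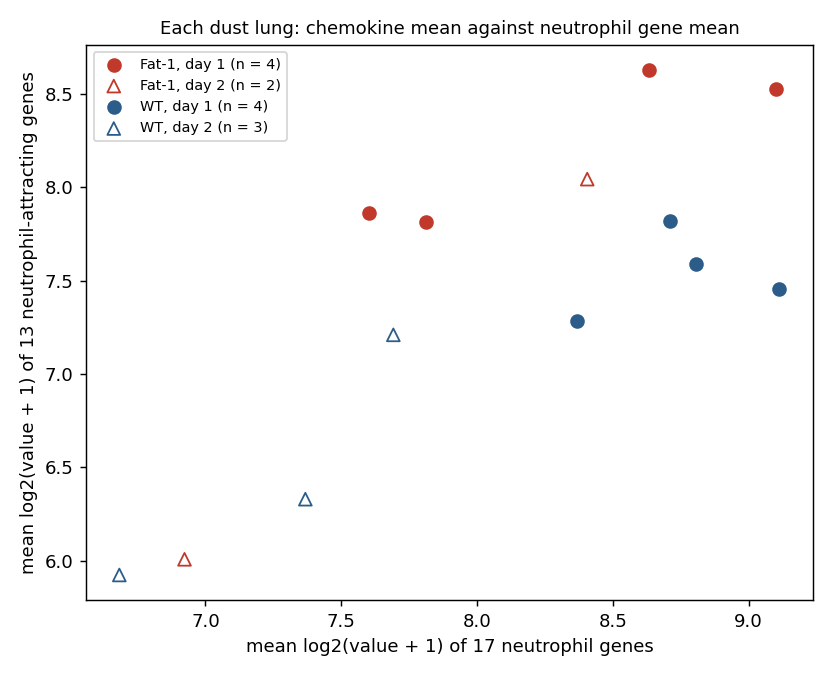
Each of the 13 dust lungs by the mean log2(value + 1) of 17 neutrophil genes (x axis) and of 13 neutrophil-attracting genes (y axis). The 2 Fat-1 female lungs of day 1 lie above the 4 WT lungs of day 1 at neutrophil means of 8.63 and 9.10, within the WT range of 8.37 to 9.11, while the 2 Fat-1 male lungs of day 1 lie to the left of them at 7.60 and 7.81.

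Among chemokines for monocytes and other myeloid cells, 11 of 13 were higher in Fat-1 lungs, against 379 of all 711 genes. Their median was 0.31, against 0.02 over all genes. At an unadjusted p under 0.05, 2 of the 13 (Ccl17 and Ccl6) were higher, against 17 of the 711 (2.39%). Ccl8, a ligand of CCR8 in the mouse, was at 107 to 816 (median 315) in Fat-1 and 91.4 to 331 (median 249.7) in WT lungs, a difference of 0.59 (SE 0.45). Ccl2 and Ccl7, ligands of the monocyte receptor CCR2, had 0.46 and 0.47. Ccr2 itself had −0.26 (SE 0.26). None of these passed the threshold.

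Genes of lipid mediators, on which the worm desaturase acts through their substrates, were mixed. Of 14 tested genes for the synthesis, breakdown and reception of eicosanoids, 8 were higher and 6 lower, with a median of 0.07. Alox15, which oxygenates polyunsaturated fatty acids and takes part in making pro-resolving mediators, was at 20 to 175 (median 46.8) in Fat-1 and 20 to 37.6 (median 25.9) in WT lungs. Its log2 difference was 0.90 (SE 0.39, limma adjusted p = 0.979). The value of 175 was the male lung of day 2 with the saturation message, and without that lung the difference was 0.63. Alox5, the enzyme that starts leukotriene synthesis, lay in the other direction at 59.1 to 282 (median 179.9) against 155 to 249.7 (median 213), a difference of −0.45 (SE 0.22). Its Fat-1 minimum of 59.1 was the female lung with the odd control ratio. Cysltr1, a receptor for cysteinyl leukotrienes, had −0.35 (SE 0.22).

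Ptgs2, the inducible cyclooxygenase, was at 159 to 356 in Fat-1 and 145 to 234 in WT lungs, a difference of 0.35 (SE 0.19). Ptgs1, the constitutive form, had 0.11 (SE 0.12, 95% confidence interval −0.15 to 0.36), among the narrower intervals here. Hpgd, which inactivates prostaglandins, had 0.27 (SE 0.31). Pro-resolving receptors and genes for the uptake of dying cells were split 5 higher and 4 lower, with a median of 0.02. Mertk and Timd4, receptors by which macrophages take up dying cells, had 0.33 (SE 0.19) and 0.41 (SE 0.28), and Anxa1, which encodes the pro-resolving protein annexin A1, −0.31 (SE 0.24). Of 12 genes for the handling and sensing of fatty acids and cholesterol, 4 were higher and 8 lower with a median of −0.05. Apoe had −0.32, Lpl, the lipase that frees fatty acids from lipoproteins, −0.18 and the carrier Fabp4 −0.18. None of these lipid genes passed the threshold.

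Macrophage and monocyte genes were lower on balance, by small medians. Of 15 monocyte and interstitial macrophage genes 3 were higher and 12 lower (median −0.13), and of 12 alveolar macrophage genes 4 were higher and 8 lower (median −0.17). None had an unadjusted p under 0.05. Cd14, the co-receptor for bacterial lipopolysaccharide, was at 346 to 2479.6 (median 1143) in Fat-1 and 506 to 2718 (median 1547) in WT lungs, a difference of −0.58 (SE 0.47). Marco, a scavenger receptor of alveolar macrophages, was at 274 to 1249 (median 447) and 368 to 843 (median 755), a difference of −0.40 (SE 0.28). The lysosomal protease Ctsd had −0.34, the sialic acid receptor Siglec1 −0.64 and the immunoglobulin receptor Fcgr1 −0.35.

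Activation genes did not divide by type. Classical activation genes were 19 higher and 5 lower (median 0.17), and alternative activation genes 11 higher and 6 lower (median 0.05), with Ccl17 the single member of either at an unadjusted p under 0.05. Retnla, a secreted protein of alternatively activated macrophages, was at 5708 to 34572 (median 15400.4) in Fat-1 and 6351 to 14232 (median 9605) in WT lungs, a difference of 0.49 (SE 0.39). Chil3, a chitinase-like protein of the same state, had −0.23 (SE 0.35), and Stat6, the transcription factor downstream of interleukin 4, −0.41. Interleukin 1 family and inflammasome genes were 10 higher and 3 lower (median 0.16), with the lower ones including Pycard, the inflammasome adaptor, at −0.54 and Il18 at −0.63. Il1rap, the shared receptor subunit, had 0.28.

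Receptors for microbial patterns were 8 higher and 10 lower (median −0.04). Tlr13, which senses bacterial ribosomal RNA, had −0.43 and Tlr8 −0.28. Of 9 interferon-stimulated genes and CXCR3 ligands 3 were higher and 6 lower (median −0.14). Irf1, a transcription factor induced by interferon, had −0.19, and Mx2, an interferon-induced antiviral protein, −0.32. Complement genes were 4 higher and 3 lower (median 0.15). C3, the central complement protein, was at 8774 to 27247 (median 13683) and 5043 to 12549 (median 11544), a difference of 0.54 (SE 0.26), and C1qa and C1qb had 0.26 and 0.27.

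Genes of antigen presentation and of lymphocytes were close to even. The 18 antigen presentation genes were 9 higher and 9 lower (median −0.02). Cd74, the class II chaperone, was at 13029.8 to 53402 in Fat-1 and 8750.2 to 18102 in WT lungs, where 53402 is the female lung with the odd control ratio, and H2-Aa had the same highest lung at 44562. Psmb8, a subunit of the immunoproteasome, had −0.35 (SE 0.21). Costimulators and checkpoints were 13 higher and 10 lower (median 0.03), with Ctla4 at 0.81 (SE 0.53), Cd86 at 0.43 and Vtcn1 at −0.21. Dendritic cell genes were 8 higher and 8 lower (median 0.04), with Cd83 at 0.48 and the growth factor receptor Flt3 at 0.45.

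Lymphoid aggregate genes were 7 higher and 6 lower (median 0.01), with Ccl21a the member at an unadjusted p under 0.05, with Cxcl13, which draws B cells into follicles, at 0.67 (SE 0.42), and with Lta at −0.12 and at the floor in 6 of 6 Fat-1 lungs. B cell and plasma cell genes were 3 higher and 2 lower (median 0.06), with Irf4 at 0.37, Fcer2a at 0.29 and Ms4a1, which encodes CD20, at −0.15. All 6 tested T cell genes were higher (median 0.24), with none at an unadjusted p under 0.05. Gata3, the T helper 2 transcription factor, had 0.35 (SE 0.21), and Il4 was above the floor in 2 Fat-1 lungs and in no WT lung. Cytotoxic lymphocyte genes were 1 higher and 4 lower (median −0.28). Klrk1, which encodes the activating receptor NKG2D, had −0.34, the chemokine Ccl5 −0.45 and the granule protein Nkg7 −0.28.

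Mast cell, eosinophil and basophil genes were 7 higher and 7 lower with a median of 0.00. Kitl, the growth factor of mast cells, was at 1834 to 2119 in Fat-1 and 1082 to 2423 in WT lungs, a difference of 0.31 (SE 0.16). Ear3, an eosinophil-associated ribonuclease of the same family as Rnase2a, had −0.41 (SE 0.25), and Fcer1a, a subunit of the IgE receptor, was at the floor in all 7 WT and 3 of 6 Fat-1 lungs, with a highest value of 49.6. The 3 platelet genes were all higher (median 0.12), Pf4 at 0.42, Selp at 0.12 and Clec1b at 0.02.

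Structural genes of the lung were close to even as well. Endothelial genes were 7 higher and 6 lower (median 0.02). That median was 0.28 without the lungs of odd control ratio and of saturation, −0.36 in females and 0.25 in males. The list's mean log2 value was 7.76 in the Fat-1 female lung with the odd control ratio and 8.62 to 8.85 in the other Fat-1 lungs. Icam1, which binds rolling leukocytes, was at 1216 to 2389.8 (median 1737) in Fat-1 and 1059 to 1822 (median 1269) in WT lungs, a difference of 0.34 (SE 0.16), with an unadjusted p under 0.05. Cdh5, the junction cadherin of endothelium, had 0.02 (95% confidence interval −0.28 to 0.31). Angpt1 and its antagonist Angpt2, ligands of Tek, had 0.23 and −0.15. Growth factor and repair genes were 9 higher and 9 lower (median 0.00), with Vegfc, a lymphatic growth factor, at 0.33 (SE 0.14), Pdgfb at −0.37 and Vegfa at −0.40.

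Fibroblast and matrix genes were 7 higher and 6 lower (median 0.03), with Col17a1 at −0.52, Col14a1 at −0.31 and Loxl2 at −0.21. Matrix proteases were 9 higher and 3 lower (median 0.11). Mmp12, the elastase of macrophages, was at 946 to 5508 (median 2575) in Fat-1 and 484 to 3091 (median 1499) in WT lungs. Its difference of 1.06 was among the 3 of 1 log2 unit or more, and its SE was 0.65. In saline lungs, grouped by the code, Mmp12 had a genotype difference of 1.28. Plaur, the urokinase receptor, had 0.30 and Adamts1 −0.46. Immediate early genes were 8 higher and 3 lower (median 0.13), with Jun at 0.23, Myc at 0.20 and Egr3 at −0.49. The 3 cell cycle genes Birc5, Top2a and Ccnb2 were all higher, at 0.33, 0.35 and 0.50. None of these structural and growth genes passed the adjusted threshold.

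The genotype difference was also taken within each extraction day. On day 1 (4 Fat-1 and 4 WT dust lungs) 39 genes were higher (5.49%) and 84 lower (11.8%) in Fat-1 lungs at an unadjusted p under 0.05, with a median over all genes of −0.11. On day 2 (2 and 3 lungs) 77 were higher (10.8%) and 7 lower (0.985%), with a median of 0.16. In all, 447 of 711 genes (62.87%) had opposite signs, 350 of them lower on day 1 and higher on day 2. The difference between the days was tested directly, in a comparison added after this was seen. At an unadjusted p under 0.05 the difference was higher on day 1 than on day 2 for 17 genes (2.39%) and lower for 120 (16.9%). After adjustment 5 genes passed, all lower on day 1, and with dust lungs alone and sex as a covariate 1 did, Ctsa. Depth moved with genotype within days, with the deeper lungs WT on day 1, and day 2 had factors of 0.988 and 1.16 in Fat-1 and 1.095 to 1.87 in WT lungs. The part of depth and of the cartridge in these differences was not tested.

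Of the 5 genes, 4 are described here, Pycard, Ctsa, Ltb and Ccl24. Ltb, a lymphotoxin subunit that organizes lymphoid tissue, was at 124 to 265 in the Fat-1 and 275 to 363 in the WT lungs of day 1, and at 102 and 127 against 69.1 to 108 on day 2. Its differences were −0.90 and 0.51, and the change between days was −1.40 (limma adjusted p = 0.0461). Pycard had −1.14 and 0.52 (adjusted p = 0.0349), with 3 of 4 Fat-1 lungs of day 1 at the floor. Ctsa, a lysosomal carboxypeptidase, had −0.66 and 0.81 (adjusted p = 0.0349), with all 4 Fat-1 lungs of day 1 at the floor. In those 4 lungs the lowest value above the floor was 34.9 to 47.3, while Ctsa in the WT lungs of that day was at 30.1 to 35.1 and Pycard at 46.1 to 56.5. Ccl24, an eotaxin, was above the floor in 1 dust lung, the Fat-1 male lung of day 2 at 149.

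The medians of most lists had opposite signs on the 2 days. Of 29 lists with 3 or more tested members, 21 had a median below 0 on day 1 and above 0 on day 2, while 6 were above 0 on both and 2 were above 0 on day 1 only. Over all 711 genes, 448 were lower on day 1 and 508 were higher on day 2, and the members' counts are read against these. Monocyte and interstitial macrophage genes had medians of −0.57 on day 1 (14 of 15 lower) and 0.43 on day 2 (12 of 15 higher). Neutrophil genes had −0.55 and 0.24, alveolar macrophage genes −0.35 and 0.33, complement genes −0.35 and 0.80, and cytotoxic lymphocyte genes −0.71 (5 of 5 lower) and 0.37 (5 of 5 higher). Antigen presentation genes were lower for 13 of 18 on day 1, near the share over all genes, and higher for 18 of 18 on day 2. The neutrophil-attracting chemokines had medians above 0 on both days, 0.65 (13 of 13 higher) and 0.37 (10 of 13, near the share over all genes). On day 2 their mean log2 values were 8.04 in the Fat-1 male and 6.01 in the Fat-1 female lung, against 5.92 to 7.21 in the WT lungs. The 6 T cell genes had medians of 0.23 and 0.30 and the eicosanoid genes 0.23 and 0.19.

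**Figure D5:**
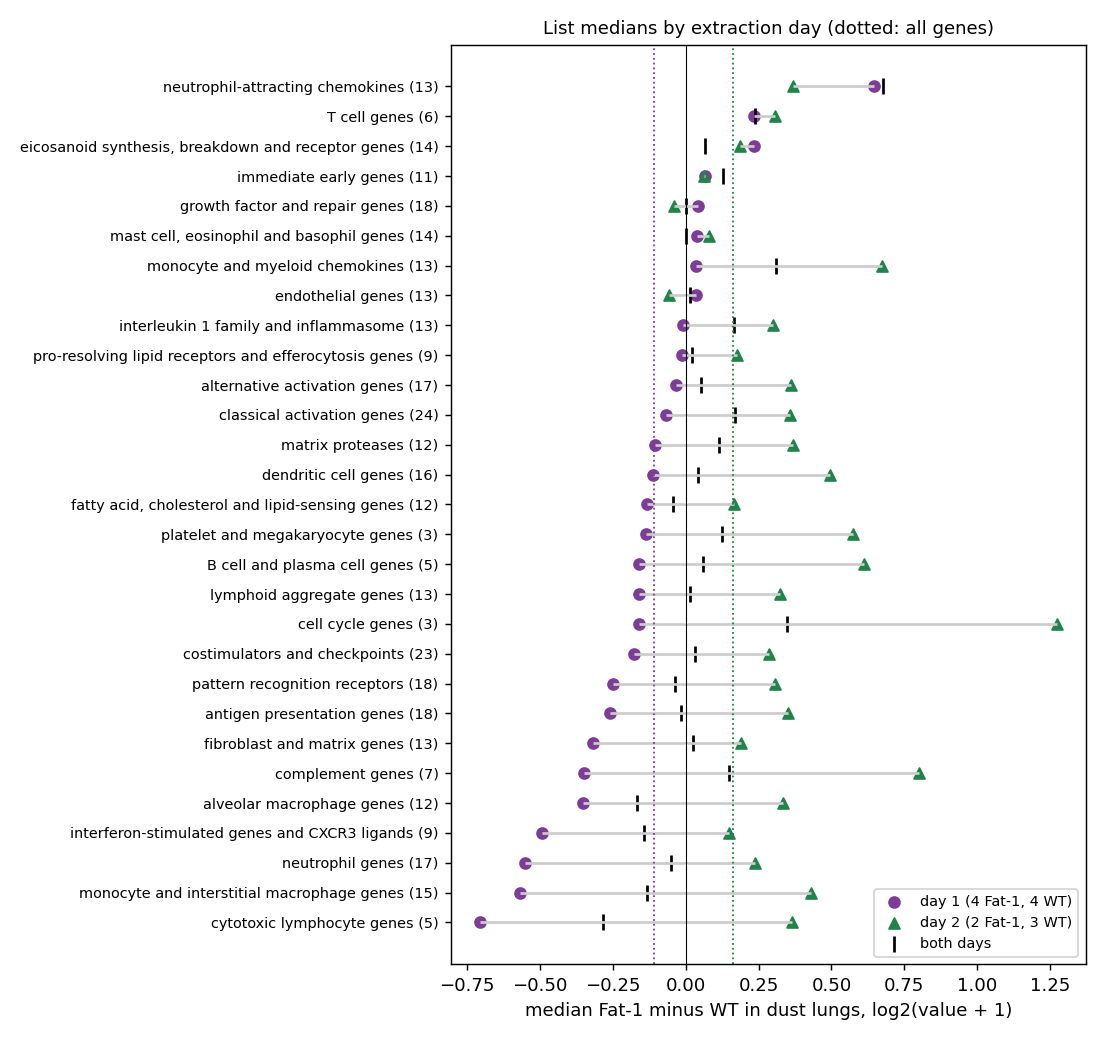
Median log2 difference, Fat-1 minus WT in dust lungs, of each gene list on day 1 (circles, 4 against 4 lungs), on day 2 (triangles, 2 against 3) and over both days (bars), with the number of genes tested in brackets and dotted lines for all genes on each day. For 21 of 29 lists the circle lies below 0 and the triangle above.

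Within day 1 the values of the 2 genotypes did not overlap for 21 genes higher in Fat-1 lungs (2.95%) and 48 lower (6.75%). Those higher included Ccl17, Ccl20, Cxcl3, Cxcl5, Maff, Edn1, Rnase2a, Timd4, Vegfc, Kitl and Jun. Those lower included Alox5, Cysltr1, Ccr2, Ctsd, Marco, Tlr13, Selplg, Klrk1, Ccl21a and Itgb7. The smallest adjusted p of day 1 was 0.0693, so none passed. On that day Ccl17 had a difference of 1.54, Marco −0.95 and Tlr13 −1.11, each with a limma adjusted p of 0.0693. Of the 711 genes, 123 on day 1 and 84 on day 2 had an unadjusted p under 0.05 in that day's own fit. For 13 this held on both days, and whether unrelated days would share as many was not tested. Of the 13, 10 pointed in opposite directions. The other 3, Ccl17, Cxcl5 and Prok2, were higher in Fat-1 lungs on both days, Ccl17 by 1.54 and 0.79 and Cxcl5 by 1.04 and 0.73, while Prok2 has no fold because every WT lung was at the floor. For Ccl17 and Cxcl5 the day 2 difference is the mean of 1 high male and 1 low female Fat-1 lung, so it has no replicate within a sex.

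In the fit of day 2 alone 3 genes passed, namely Ccl24 (1.42, limma adjusted p = 0.00848), Prg2, an eosinophil granule protein (1.07, adjusted p = 0.0128), and Fcer2a, the low-affinity IgE receptor (0.70, adjusted p = 0.0412). That fit had 3 residual degrees of freedom. Ccl24 and Prg2 were above the floor on day 2 in the Fat-1 male lung alone, the lung with the saturation message, at 149 and 90.9. Fcer2a was at 27.9 and 39.5 in the Fat-1 lungs and at the floor in all 3 WT lungs of that day.

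Neither sex alone gave a gene past the threshold. In females (3 Fat-1, 4 WT) 41 genes and in males (3 and 3) 20 had an unadjusted p under 0.05 and none an adjusted p under 0.05. Ccl20 came nearest in females, with a difference of 1.63 (limma adjusted p = 0.176), where the 3 Fat-1 lungs had 65.1 to 203 and the 4 WT lungs 33.95 to 52.7. In males it had 0.24. The next in females were Ifit1bl1 at −1.29 and Adamts1, a matrix protease, at −1.28, and in males Ttk at 1.03, Il3 at 0.76 and Alox15 at 1.52. The sexes were not shown to differ, since the test of the genotype difference between females and males gave no gene at an adjusted p under 0.05 and 23 at an unadjusted one. Its smallest p were those of Ear6 (female minus male −1.27), Cd44 (1.34) and Adamts1 (−1.63), the first 2 near the floor.

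The genotype difference in dust was also set against that in saline, where 0 genes differed in it at an adjusted p under 0.05 and 21 at an unadjusted one. Rnase2a had 1.08 in dust and −0.97 in saline, a change of 2.05 between them. Ifit1bl1 had −0.87 and 0.36, and Vtcn1, a B7 family checkpoint, −0.21 and 0.43. Of the leading chemokines Ccl17 had 1.36 in dust and 0.32 in saline, Cxcl5 1.00 and 0.17, and Ccl20 0.93 and −0.14, while Cxcl1 had 0.94 and 1.12. For none of these was the difference between dust and saline past the threshold. Fat-1 female saline lung 1 of day 1 and Fat-1 male saline lung 2 of day 2 are WT by title and characteristics. The saline differences thus depend on the code being right.

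Single lungs weighed on the result. Leaving out each dust lung in turn gave 0 genes except without the Fat-1 female dust lung 1 of day 2, when 5 passed, all higher in Fat-1 lungs. They were Ccl20 (1.18, limma adjusted p = 0.0171), Maff (0.69, 0.0171), Prok2 (no fold, 0.0171), Ccl17 (1.96, 0.0233) and Cxcl5 (1.45, 0.0233). That lung has the lowest S100a8 of the 13 and low Cxcl1, Cxcl3 and Il1a, at 53.5, 135 and 68.6. Its technical measures were ordinary, with a control ratio of 3.20, a binding density of 0.71 and no saturation message. They give no ground for leaving it out, so the 5 calls rest on which lung is dropped. The fit with limma's array weights, which give lungs that agree less with their group less weight, called 97 genes, 31 higher (4.36%) and 66 lower (9.28%). Weights were 0.09 for the female lung with the odd control ratio and 0.21 for WT female dust lung 2 of day 2, and 0.21 to 0.70 for the 5 dust lungs of day 2, so that this fit rests mainly on day 1. The largest weight among Fat-1 dust lungs was 3.15, for male lung 1 of day 1, which is WT by title and characteristics. The higher genes in this weighted fit included Ccl17, Ccl20, Cxcl5, Maff, Edn1 and Vegfc, and the lower ones Alox5, Apoe, Cx3cr1 and Marco. With day as a block as well it called 0. The count was 0 also without the 1 dust and 3 saline lungs whose labels conflict, and without the 2 lungs of odd control ratio and of saturation.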

How the data were processed

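The deposited table holds signal values made by the authors from nCounter probe counts of a mouse myeloid innate immunity panel, per the file headers. Tests on the values showed that each lung's values are whole multiples of 1 step (tolerance 0.1 step), that counts under 20 are set to 20, and that control rows are raw. Neither the software nor the genes behind the scaling factor are stated in the labels or headers used here. Values were taken as log2(value + 1) and fitted with limma 3.58.1 (R 4.3.3) over all 23 lungs with a mean for each genotype, sex and exposure. The genotype difference is the average of the female and male differences. P-values were adjusted by Benjamini-Hochberg over the 711 genes above the floor in at least 1 lung, while 43 genes at the floor throughout were left out. Differences are on the log2(value + 1) scale. For genes near the floor they can be too small or too large. A count under 20 is set to 20, while the lowest value above the floor was 34.9 to 47.3 in the Fat-1 lungs of day 1.

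Groups came from the extract code, which conflicts with the title or characteristics in 1 dust and 3 saline lungs. Among the latter, Fat-1 female saline lung 1 of day 1 and Fat-1 male saline lung 2 of day 2 are WT by both. The mice were lavaged before the lobe was taken, per the labels' protocols. The members, lists and tests were chosen with earlier results of these data known. Named genes are those at an unadjusted p under 0.05 and above the floor in at least 10 of the 13 dust lungs, up to the 10 highest and 10 lowest, and up to 3 genes of smallest p in each list or other comparison. Prok2 and other genes outside that rule were chosen after their values were seen. Alternatives covered days, cartridges, scaling, floor, pseudocount, filter, weights and each dust lung left out. The fit was tested on simulated data. The values of some genes are not reported here.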

Additional observations from a re-analysis of the deposited data

Results flagged for a closer look

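A lung was picked out where its distance from the nearest lung of its genotype was large against the range of the group by Dixon's criterion. This held for 37 of 256 combinations of measure and genotype (14.5%), and the combinations are not independent. The criterion's chance rate of about 1 in 20 is for normally distributed values and does not apply to genes at the floor. Where all other lungs are at the floor, as for Ccl24 in Fat-1 lungs, any value above it is picked out. Fat-1 female dust lung 2 of day 1 stood apart most often, in 14. Its ratio of positive controls was 1.07. Its normalized counts were low for Hpgd (2168), Chil3 (4169.7), Tek (364), Thbd (629), Gsn (868), Tspan7 (199), Il18 (20), Stat6 (222), Pdgfb (251) and Vegfa (638). They were high for Cd74 (53402), Il4 (61.5) and Pf4 (879).

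Fat-1 female dust lung 1 of day 2 stood apart with low Ccl17 (215), Cxcl2 (38.4) and Cxcl3 (135), and with Col17a1 above the floor (44.2). Fat-1 male dust lung 1 of day 2 stood apart in binding density (3.05) and Ccl24 (149), and Fat-1 male dust lung 1 of day 1 in Ptgs1 (1382).

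Among WT lungs, female dust lung 2 of day 2 was high for Camp (43.9), Jun (1361) and Il3 (40.2) and low for Irf1 (1010.4), C3 (5043) and Plaur (537). Male dust lung 1 of day 2 was low for Pycard (20), Fabp4 (110.1), Birc5 (20), Top2a (59.7) and Ccnb2 (20). Female dust lung 1 of day 1 was high for Ifit1bl1 (232) and Prg2 (30.1). Female dust lung 2 of day 1 had a control ratio of 3.51 and Lta at 32.3, and male dust lung 2 of day 1 had Csf3 at 35.1.

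The genotype difference of day 1 minus that of day 2 passed in limma for 5 genes, among them Ccl24 (−1.42, adjusted p = 0.0011), Ctsa (−1.47, 0.0349), Ltb (−1.40, 0.0461) and Pycard (−1.66, 0.0349). The part of depth, cartridge and the floor in these was not tested.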

How the results depend on the processing

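The count of genes differing between Fat-1 and WT dust lungs was 0 in all 23 lungs and under the other scalings, floors, filters, blocks and groupings run, except as follows. It was 3 on day 2 alone, 97 with array weights, and 0 to 5 with 1 dust lung left out. In females it was 1 on day 1 alone (Il1a), 3 with array weights, and 0 to 5 with 1 lung left out. The 5 came without the Fat-1 female dust lung of day 2, and 1 (Ccl20) without WT male dust lung 2 of day 1. In males it was 7 on day 2 alone, 144 with array weights and 72 with array weights and day as a block, the last chosen after seeing the data. On day 2 alone genotype by sex gave 3 genes and genotype by exposure 4. On day 2 each dust group of one genotype and sex was 1 lung, apart from the 2 WT females. The day 2 count in males thus compares 1 Fat-1 lung, the one with the saturation message, with 1 WT lung. None of the day 2 counts has a replicate within a Fat-1 dust group of one sex, so none can show a genotype difference. Genotype by day gave 1 in place of 5 with dust lungs alone. The largest weight of a Fat-1 dust lung was 3.15, and 2.11 with the day block. Both were those of male lung 1 of day 1, which is WT by title and characteristics. Thbd reversed with array weights (0.58 against −0.02). The cause of these was not tested. With the replicate block the count was 0. Lungs of the same day and number had a median correlation of −0.077 (18 pairs, range −0.446 to 0.738). Lungs of the same day and another number had −0.041 (15 pairs, range −0.525 to 0.766). With ranges this wide, whether the numbers pair the lungs cannot be told. A count model on recovered counts was not run, because counts under the floor cannot be recovered. Depth limits genes near the floor most, in the Fat-1 lungs of day 1.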
